A study of Mus musculus with 6 samples.

Results

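Cyclin-dependent kinase inhibitors were followed in C2C12, an established line of mouse muscle precursors whose cells stop dividing and fuse into myotubes once serum is lowered. The 7 genes are Cdkn1a, Cdkn1b and Cdkn1c of the Cip/Kip family and Cdkn2a, Cdkn2b, Cdkn2c and Cdkn2d of the INK4 family. Every probe set that the platform annotation assigns to one of these genes alone was kept, whatever its values, which gave 9 probe sets of 45033 tested, and 7 genes of 18192. The tested cells were C2C12 transfected with an shRNA against PRDM2 (3 arrays), and the control cells were C2C12 transfected with an shRNA against GFP (3 arrays). Both were cultured for 28 h in medium with 2% horse serum before total RNA was taken, so the control cells carried an shRNA and were differentiating too. The labels call the 3 cultures of a group biological replicates, and say nothing of clones or selection. PRDM2 is a methyltransferase of histone H3 lysine, and the question was how its knockdown changes the transcriptome of myoblasts kept in differentiating conditions.

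The Cip/Kip proteins p21 (Cdkn1a), p27 (Cdkn1b) and p57 (Cdkn1c) bind cyclin-kinase complexes and block above all cyclin E and cyclin A with Cdk2. The INK4 proteins p16 (from Cdkn2a), p15 (Cdkn2b), p18 (Cdkn2c) and p19 (Cdkn2d) bind Cdk4 and Cdk6 and keep them from D-type cyclins. In differentiating myoblasts the induction of p21, together with p57, accompanies permanent withdrawal from the cell cycle, and the retinoblastoma protein then stays unphosphorylated and holds E2F factors silent.

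None of the 9 probe sets differed between PRDM2 shRNA and GFP shRNA cells past an adjusted p of 0.05 in limma's moderated test over all probe sets, and 0 of 45033 probe sets did (0%). Cdkn1a, Cdkn1c and Cdkn2d read higher on average in PRDM2 shRNA cells and Cdkn2a, Cdkn2b and Cdkn2c lower, by at most 0.34 on the log2 scale, while the probe sets of Cdkn1b pointed opposite ways. Of the 9 probe sets 5 lay on the higher side and 4 on the lower, with a median log2 fold change of 0.02, beside 50% of all probe sets on the higher side and a median of -2.90e-05. At an unadjusted p under 0.05 the members also numbered 0, against 1326 of all probe sets (2.94%). The groups overlapped for all 9 members, while 3262 probe sets (7.24%) had groups that did not overlap. Without GFP shRNA replicate 2, 7 of the 9 probe sets lay on the higher side and 2 on the lower, with a median of 0.24. Beside them, 49.1% of all probe sets then lay on the higher side, with a median of -0.0033. Levels are given as log2(intensity + 16) after quantile normalization, and SE is limma's moderated standard error. An offset of that size pulls the fold change of dim probe sets towards 0.

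The arrays did not fall into groups by shRNA. Over the 11259 brightest probe sets, PRDM2 shRNA replicate 2 and GFP shRNA replicate 2 differed by a median of 0.0514 on the log2 scale, the smallest of the 15 pairs, and the next pair, the arrays numbered 3, differed by 0.135. GFP shRNA replicate 2 differed from the other GFP shRNA arrays by 0.254 and 0.248, whereas those differed from each other by 0.146. PRDM2 shRNA replicate 2 also lay apart from its group, by 0.2004 and 0.181, where the other PRDM2 shRNA arrays differed by 0.1402. The resemblance of the arrays numbered 2 was not tested for a cause. Values that GFP shRNA replicate 2 moved by over 1.5 times are given with and without it. Without it, 248 probe sets passed the threshold (0.551%), 126 higher and 122 lower in PRDM2 shRNA cells, and 0 members did. Without PRDM2 shRNA replicate 2 in its place 0 probe sets passed, and without both arrays 59 did (27 higher, 32 lower). Prdm2 itself, the targeted gene, read 6.67, 6.32 and 6.02 in PRDM2 shRNA cells against 6.19, 6.42 and 5.94 in GFP shRNA cells (log2 fold change 0.15, SE 0.19, 95% interval -0.30 to 0.61). Without GFP shRNA replicate 2 this value was 0.27, and without PRDM2 shRNA replicate 1 it was -0.01. The other Prdm2 probe sets gave 0.07 (SE 0.18, and 0.23 without GFP shRNA replicate 2) and 0.12 (SE 0.088), so the mRNA measured did not separate the groups, and every direction rests on the labels of the arrays. Of 15 skeletal muscle markers 13 exceeded 16 intensity units on all arrays, with summed intensities of 22105 to 23696 in PRDM2 shRNA cells and 20425 to 22842 in GFP shRNA cells, and Myf6 did not reach 16 on any. Endothelial markers (5 of 5, sums 18.1 to 21.1 against 14.4 to 18.3) and adipocyte markers (3 of 3 measured, 4.43 to 13.1 against 5.56 to 17.3) stayed under 16 on all arrays. Of 6 macrophage and leukocyte markers 3 exceeded 16 on all arrays, and Ptprc, Cd68 and Itgam stayed under 16 on all arrays. Their sums were 97.0 to 200.5 in PRDM2 shRNA cells and 118.2 to 193.1 in GFP shRNA cells. Smooth muscle markers, 4 of 5 above 16 on all arrays and Myh11 under it, summed to 5108 to 6258 in PRDM2 shRNA cells against 4219 to 4931 in GFP shRNA cells. Of all these markers 2 passed the threshold without GFP shRNA replicate 2 and 0 with all arrays. Tagln, a smooth muscle marker, gave 1.28 (SE 0.43) with all arrays and 1.80 (SE 0.18, limma's adjusted p = 0.0244) without that array. Myf5, a factor of early myoblasts in the skeletal list, gave -1.32 (SE 0.46) and -1.90 (SE 0.11, limma's adjusted p = 0.00675). Neither marker passed without PRDM2 shRNA replicate 2, where 0 of all probe sets did. The part of Tagln and Myf5 in the results was not tested. In such bulk RNA, fewer cells of a type and less RNA per cell cannot be told apart.

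**Figure D1:**
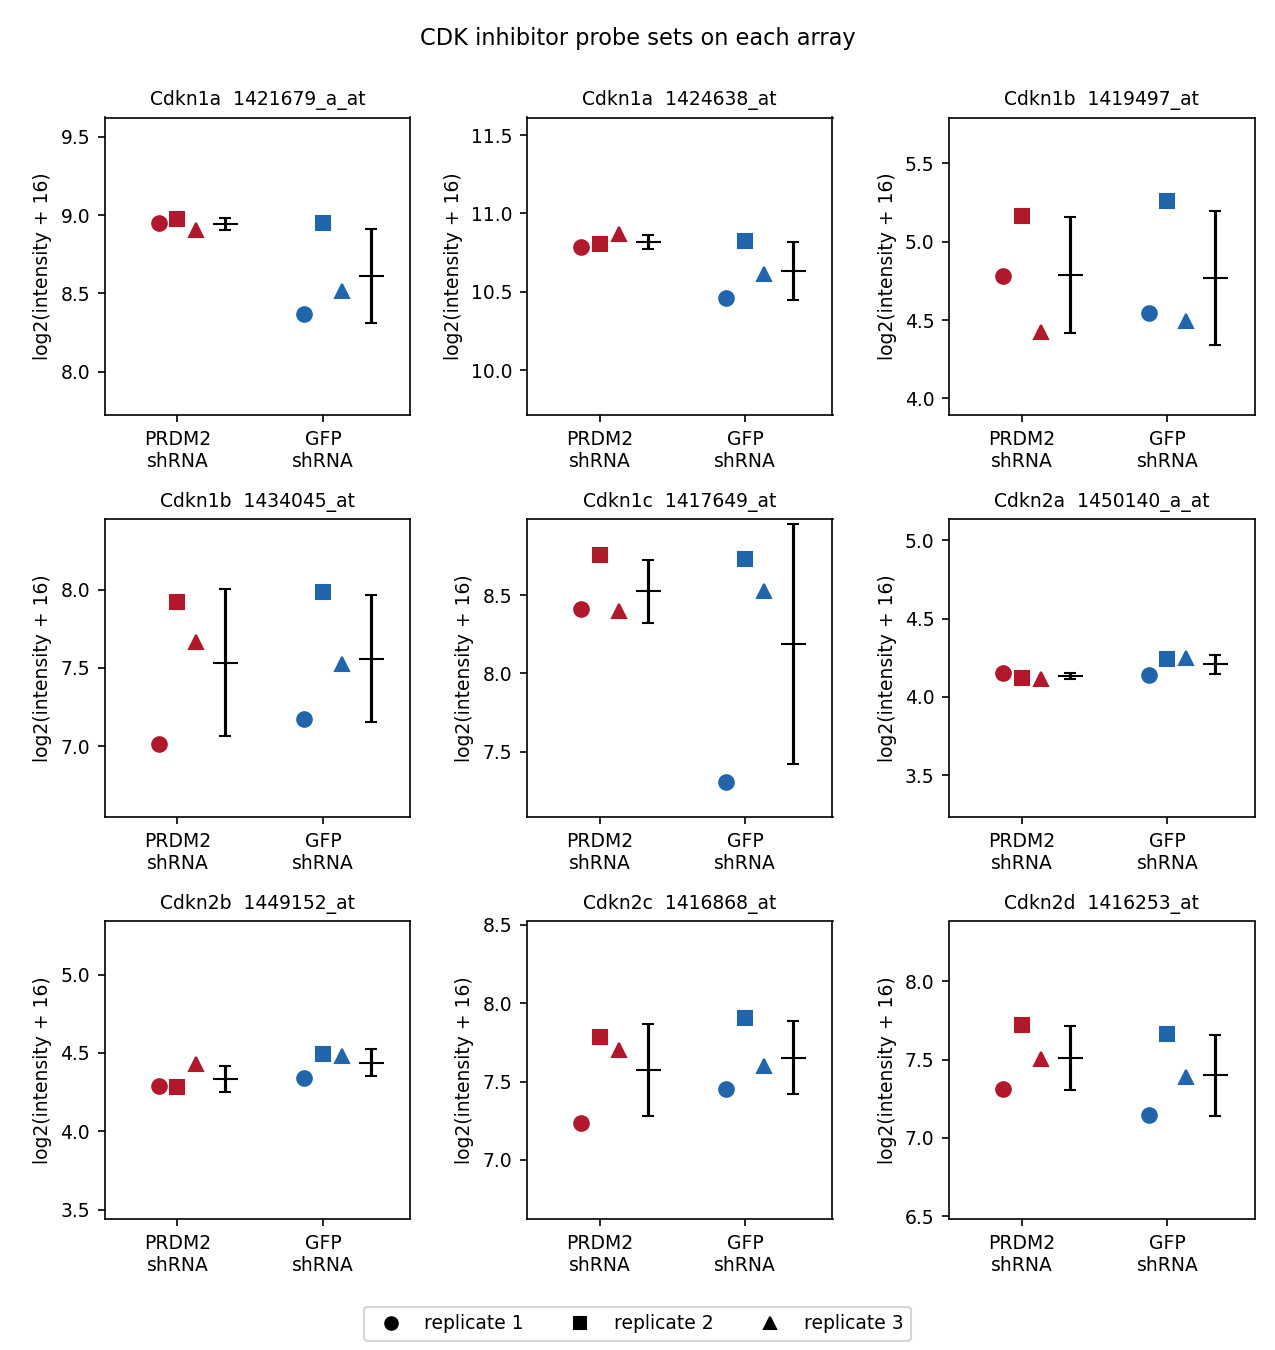
Level of the 9 probe sets of the 7 inhibitors as log2(intensity + 16) after quantile normalization, 1 point per array (shape for replicate number), PRDM2 shRNA left and GFP shRNA right, with each group's mean and SD beside the points. Each panel has its own axis. Cdkn1a is the brightest member, Cdkn2a and Cdkn2b lie near the floor of 4, and the groups overlap for every probe set.

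Cdkn1a, which encodes p21 and responds to p53 and to MyoD, had the brightest probe set of the members, 1424638_at. It read 1855, 1751 and 1738 intensity units in PRDM2 shRNA cells, against 1506, 1767 and 1532 units in GFP shRNA cells. On the log2 scale the levels were 10.79, 10.80 and 10.87 in PRDM2 shRNA cells and 10.46, 10.83 and 10.62 in GFP shRNA cells. The PRDM2 shRNA arrays were close together (SD 0.043) and the GFP shRNA arrays further apart (SD 0.18), with replicate 2 level with the PRDM2 shRNA arrays. PRDM2 shRNA over GFP shRNA came to a log2 fold change of 0.19 (SE 0.10, 95% interval of -0.07 to 0.44, adjusted p = 1.00 in limma).

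The other Cdkn1a probe set, 1421679_a_at, read 512, 488 and 424 intensity units in PRDM2 shRNA cells, against 326, 493 and 334 units in GFP shRNA cells. Its log2 levels were 8.95, 8.98 and 8.91 in PRDM2 shRNA cells (SD 0.036) and 8.37, 8.95 and 8.52 in GFP shRNA cells (SD 0.30). GFP shRNA replicate 2 was again the only control array to reach the PRDM2 shRNA levels. Here the groups differed by a log2 fold change of 0.33 (SE 0.15, 95% interval -0.03 to 0.69, adjusted p = 1.00 in limma), a ratio of 1.26 with an interval of 0.982 to 1.61. With the replicate number as a block, the value was the same and its unadjusted p was 0.0275 (limma's adjusted p = 0.631), and in that fit 1 member, this probe set, and 3531 of all probe sets (7.84%) had an unadjusted p under 0.05.

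Without GFP shRNA replicate 2, the log2 fold change of 1421679_a_at was 0.50 (SE 0.088, 95% interval 0.28 to 0.71, limma's adjusted p = 0.0947). That of 1424638_at was 0.28 (SE 0.090, 95% interval 0.07 to 0.50, limma's adjusted p = 0.327). Neither passed the threshold, so the call did not change, but both values moved by over 1.5 times with 1 array. In that fit the Cdkn1a probe sets were the 2 members with an unadjusted p under 0.05, beside 4616 of all probe sets (10.3%). They were also the 2 members for which every PRDM2 shRNA array was higher than every remaining GFP shRNA array, beside 5800 of all probe sets (12.9%). Without GFP shRNA replicate 1 the values were 0.21 for 1421679_a_at and 0.10 for 1424638_at.

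The windows from 250 bases before to 50 bases after both RefSeq starts of Cdkn1a (build GRCm38.p6, plus strand) are shown because p53 and MyoD act on this gene. Capitals mark an E-box, the motif CANNTG bound by MyoD and related factors, or a p53 half-site, each searched on both strands. The half-site was RRRCWWGYYY, where R is A or G, W is A or T and Y is C or T. Only exact matches were marked and counted.
Cdkn1a, chr17:29090729-29091028: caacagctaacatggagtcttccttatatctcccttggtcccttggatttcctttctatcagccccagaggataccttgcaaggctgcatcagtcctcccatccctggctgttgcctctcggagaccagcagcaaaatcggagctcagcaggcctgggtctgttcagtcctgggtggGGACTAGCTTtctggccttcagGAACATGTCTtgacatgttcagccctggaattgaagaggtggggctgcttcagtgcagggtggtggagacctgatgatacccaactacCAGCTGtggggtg
Cdkn1a, chr17:29093519-29093818: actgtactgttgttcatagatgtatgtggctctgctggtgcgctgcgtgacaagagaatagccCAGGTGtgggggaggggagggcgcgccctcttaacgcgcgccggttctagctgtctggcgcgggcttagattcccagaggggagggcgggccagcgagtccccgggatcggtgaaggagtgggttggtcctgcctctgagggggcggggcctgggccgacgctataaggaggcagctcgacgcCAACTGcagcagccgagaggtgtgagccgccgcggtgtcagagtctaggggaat
The upstream window held 1 E-box, CAGCTG, and 2 p53 half-sites, which began 73 and 51 bases before the start. The letters directly after GAACATGTCT, tgacatgttc, depart from the half-site at their first base only, so they were not marked or counted. The downstream window held 2 E-boxes, CAGGTG and CAACTG, and 0 p53 half-sites. Of 32851 RefSeq windows of this length, 72.3% held at least 1 E-box and 39.6% at least 2, while 8.36% held at least 1 p53 half-site and 0.359% at least 2. The GC box GGGCGG, searched too and not capitalised, occurred 0 times in the upstream window and 2 times in the downstream window, where 19.5% of all windows held at least 2. A match describes the letters only. RefSeq windows were found for 6 of the 7 genes, all but Cdkn1c. Cdkn1b had 0 E-boxes and 0 half-sites, Cdkn2d had 0 E-boxes and 1 half-site, and Cdkn2b had 1 E-box. Of the 2 windows of Cdkn2c, 1 held an E-box, and the 2 windows of Cdkn2a held none.

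Cdkn1b encodes p27, whose amount is set largely by degradation through Skp2. Its probe set 1434045_at read 7.01, 7.92 and 7.66 in PRDM2 shRNA cells and 7.17, 7.98 and 7.52 in GFP shRNA cells, from 119, 225 and 173 intensity units and 132, 243 and 161 units. The groups differed by -0.03 on the log2 scale (SE 0.28, 95% interval -0.71 to 0.65). The arrays numbered 2 were highest and those numbered 1 lowest under both shRNAs, and the spread within a group was far larger than the difference between groups. The dimmer probe set 1419497_at read 4.78, 5.16 and 4.42 in PRDM2 shRNA cells and 4.55, 5.26 and 4.49 in GFP shRNA cells, above 16 units only on the 2 arrays numbered 2. Its log2 fold change was 0.02 (SE 0.26, 95% interval -0.60 to 0.64). The sign of either probe set turned with 1 array left out, over -0.22 to 0.23 for 1434045_at and -0.16 to 0.27 for 1419497_at. Without GFP shRNA replicate 2 the values were 0.19 and 0.27.

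Cdkn1c encodes p57 and had the widest spread of the 9 probe sets, an SD of 0.53 over the 6 arrays. It read 8.41, 8.76 and 8.40 in PRDM2 shRNA cells, against 7.31, 8.73 and 8.52 in GFP shRNA cells, from 349, 413 and 297 units and 147, 420 and 336 units. A single array, GFP shRNA replicate 1, was low, and the other 5 lay within 8.40 to 8.76. The groups differed by 0.34 on the log2 scale (SE 0.36, 95% interval -0.53 to 1.20, adjusted p = 1.00 in limma). It was -0.10 without GFP shRNA replicate 1 and 0.61 (SE 0.34, limma's adjusted p = 0.669) without GFP shRNA replicate 2, so its direction rested on which control array was kept.

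Candidates were the 19538 probe sets that name 1 gene other than Cdkn1c and whose mean level reached that of the median probe set. Among them, the 3 genes most like Cdkn1c over the 6 arrays were Myom2, Smpx and Flcn. Likeness was the root mean square difference of log2 values centred on their mean over the 6 arrays, which was 0.089 for Myom2 (r 0.988), 0.130 for Smpx (r 0.966) and 0.140 for Flcn (r 0.967). All 3 were lowest on GFP shRNA replicate 1. Myom2, an M-band protein of the sarcomere, read 9.72, 10.04 and 9.85 in PRDM2 shRNA cells and 8.74, 10.00 and 9.72 in GFP shRNA cells. Smpx, a small muscle protein, read 8.48, 8.53 and 8.49 in PRDM2 shRNA cells and 7.14, 8.54 and 8.33 in GFP shRNA cells. Flcn, folliculin, read 8.22, 8.30 and 8.34 in PRDM2 shRNA cells and 7.22, 8.43 and 8.19 in GFP shRNA cells.

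**Figure D2:**
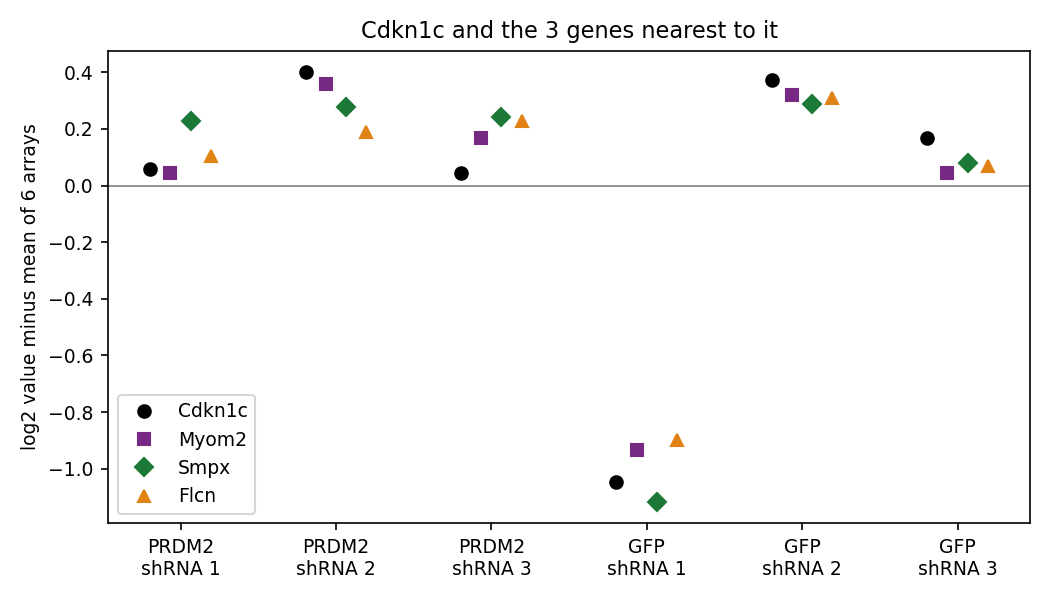
Log2 level centred on the mean over the 6 arrays for Cdkn1c and the 3 genes most like it, by array, PRDM2 shRNA arrays left of GFP shRNA arrays. All 4 genes are lowest on GFP shRNA replicate 1, where Cdkn1c read 7.31.

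Of the INK4 genes, Cdkn2c and Cdkn2d were measured well above the dim range and Cdkn2a and Cdkn2b were not. Cdkn2c, encoding p18, read 7.24, 7.79 and 7.70 in PRDM2 shRNA cells and 7.45, 7.91 and 7.60 in GFP shRNA cells. Its log2 fold change was -0.08 (SE 0.18, 95% interval -0.51 to 0.35), and the groups overlapped throughout. Without GFP shRNA replicate 2 the value was 0.05, and without PRDM2 shRNA replicate 1 it was 0.09, so the direction did not hold.

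Cdkn2d, encoding p19, read 7.31, 7.72 and 7.50 in PRDM2 shRNA cells and 7.15, 7.66 and 7.39 in GFP shRNA cells. At each replicate number the PRDM2 shRNA array was the higher, by 0.17, 0.06 and 0.11, though the groups overlapped. The same held for Cdkn1a by 1421679_a_at, with differences of 0.58, 0.03 and 0.39. How many of all probe sets share this trait was not counted. For Cdkn2d the groups differed by 0.11 on the log2 scale (SE 0.16, 95% interval -0.27 to 0.49). It was 0.24 without GFP shRNA replicate 2 and -0.02 without GFP shRNA replicate 1.

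Cdkn2a, whose locus encodes p16 and the Arf protein that holds back Mdm2, read 1.78, 1.39 and 1.39 intensity units in PRDM2 shRNA cells and 1.63, 2.75 and 3.04 units in GFP shRNA cells. Cdkn2b, encoding p15, read 3.57, 3.44 and 5.76 units in PRDM2 shRNA cells and 4.23, 6.25 and 6.49 units in GFP shRNA cells. Neither exceeded 16 units on any of the 6 arrays, so signal near background limits what their values can show. Whether signal this dim was detected was not tested. The log2 fold changes were -0.08 (SE 0.068) for Cdkn2a and -0.10 (SE 0.082) for Cdkn2b. With an offset of 1 in place of 16 they were -0.46 and -0.38, which shows how far the offset sets them.

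**Figure D3:**
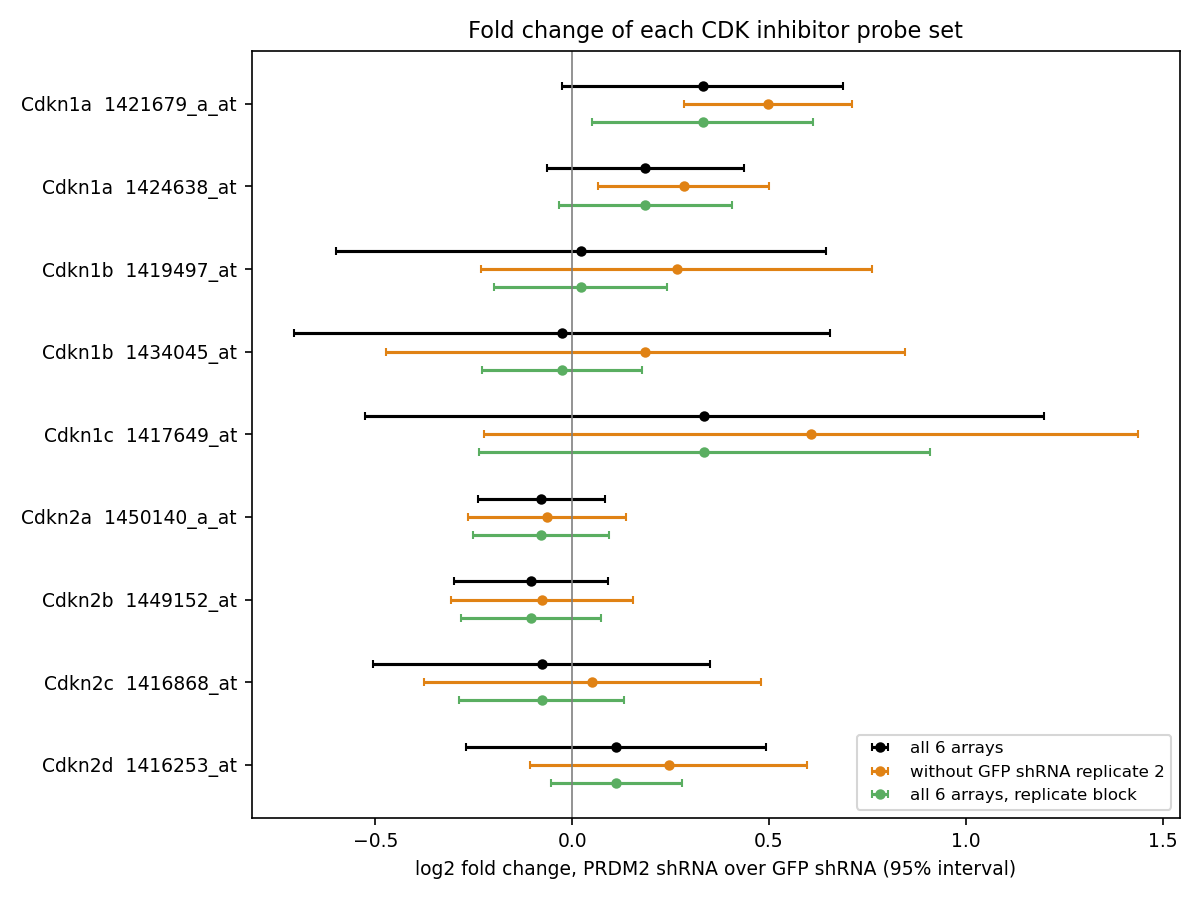
Log2 fold change of PRDM2 shRNA over GFP shRNA for each of the 9 probe sets with its 95% interval, from all 6 arrays (black), without GFP shRNA replicate 2 (orange) and from all 6 arrays with the replicate block (green). Every black interval includes 0, both orange intervals of Cdkn1a lie above 0, and the green one does so for 1421679_a_at alone.

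In an F test of the replicate number beside the group, chosen after the values were seen, both Cdkn1b probe sets passed the threshold in limma (adjusted p = 0.0337 for 1434045_at and 0.0427 for 1419497_at). These were 2 of the 9 members, beside 1833 of all probe sets (4.07%). At an unadjusted p under 0.05 the members were 4, Cdkn2c and Cdkn2d being the others, beside 11145 of all probe sets (24.7%). Averaged over both shRNAs, Cdkn1b by 1434045_at read 7.09, 7.95 and 7.59 at numbers 1, 2 and 3, Cdkn2c 7.34, 7.85 and 7.65, and Cdkn2d 7.23, 7.69 and 7.45. These 3 probe sets were highest at number 2 and lowest at number 1, whereas the dimmer Cdkn1b probe set 1419497_at, at 4.66, 5.21 and 4.46, was highest at number 2 and lowest at number 3. The labels do not say what a number stands for. With 1 array left out, the count of members and that over all probe sets did not always move together. Without GFP shRNA replicate 1, 2 members passed, the Cdkn1b probe sets, beside 4965 of all probe sets (11%). Without PRDM2 shRNA replicate 3, GFP shRNA replicate 2 or GFP shRNA replicate 3, 0 members and 0 of all probe sets (0%) passed. Without PRDM2 shRNA replicate 2, 0 members and 1297 of all probe sets (2.88%) did. Without PRDM2 shRNA replicate 1, 3 member probe sets passed, those of Cdkn1b and that of Cdkn1c (limma's adjusted p = 0.00904), beside 4710 of all probe sets (10.5%).

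**Figure D4:**
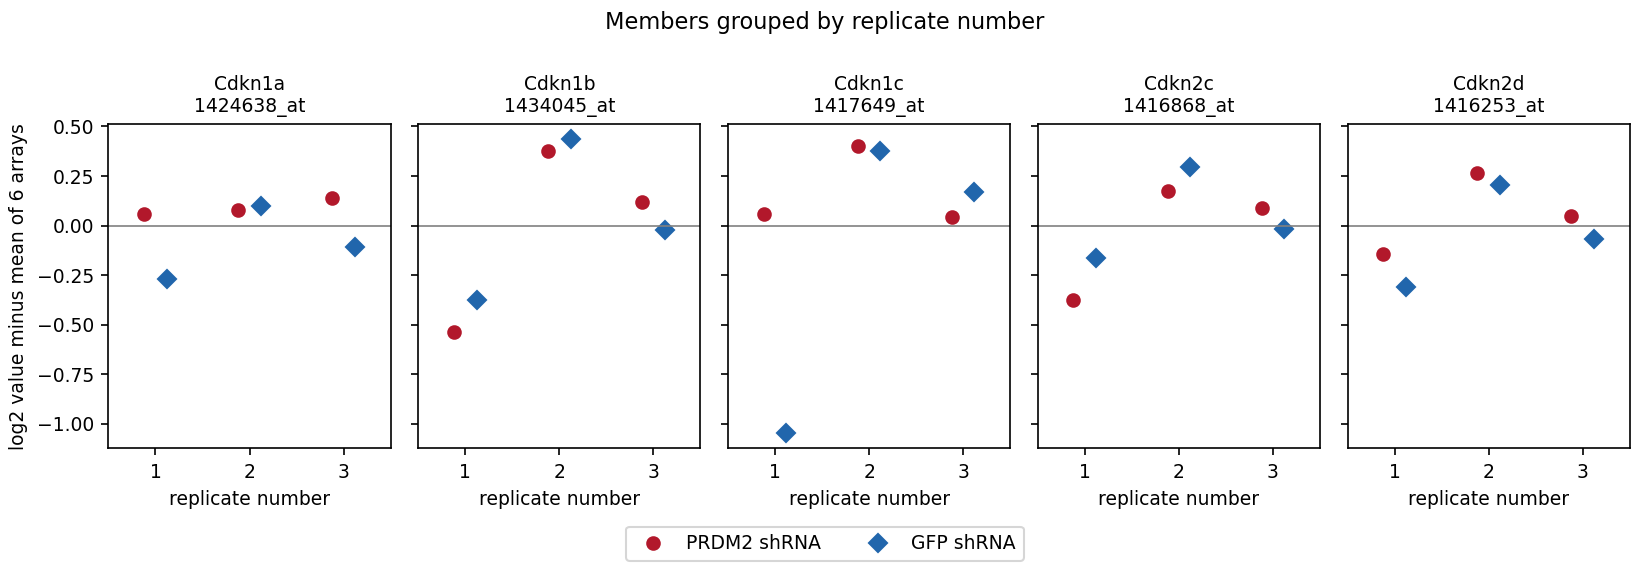
Log2 level minus the mean of the 6 arrays, by replicate number, for the brightest probe set of the 5 inhibitors above 16 units on all arrays, with circles for PRDM2 shRNA and diamonds for GFP shRNA. Cdkn1b, Cdkn2c and Cdkn2d are highest at number 2 and lowest at number 1 under both shRNAs.

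The G1/S partner list holds genes on which the inhibitors act or that lie directly downstream. They are kinases, cyclins, pocket proteins, E2F and DP factors, Cdc25a and Pcna. Of its genes 25 of 25 were measured, by 64 probe sets. Of these, 0 passed the threshold in limma with all 6 arrays and 0 without GFP shRNA replicate 2. An unadjusted p under 0.05 in limma was seen for 1 probe set (1.56%), beside 2.94% of all probe sets. By each gene's brightest probe set, 11 genes lay on the higher side in PRDM2 shRNA cells and 14 on the lower. The median log2 fold change was -0.05. Over all 18192 genes, 48.8% lay on the higher side and the median was -0.0033. The 3 genes of smallest unadjusted p were Ccna1, Ccnd1 and Ccnd2. Ccnd1, the cyclin D1 gene that partners Cdk4 and Cdk6, read 7.88, 7.75 and 7.92 in PRDM2 shRNA cells against 8.62, 7.83 and 8.33 in GFP shRNA cells, with GFP shRNA replicate 2 inside the PRDM2 shRNA range. Its log2 fold change was -0.41 (SE 0.19), and -0.63 (SE 0.12, limma's adjusted p = 0.109) without GFP shRNA replicate 2, and -0.23 without GFP shRNA replicate 1. Ccna1, a cyclin A gene, read at most 7.24 intensity units in PRDM2 shRNA cells and 4.26 in GFP shRNA cells, and its log2 fold change of 0.19 (SE 0.073) is one of dim values. Ccnd2, cyclin D2, had a log2 fold change of 0.22 (SE 0.12), which was 0.14 without PRDM2 shRNA replicate 1 and 0.33 without PRDM2 shRNA replicate 2.

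Genes known to raise or lower transcription or stability of the inhibitors were measured for 24 of 25, by 58 probe sets. Trp53, which encodes p53, had no probe set of its own. With all 6 arrays 0 genes passed the threshold. Of the probe sets 1 (1.72%), 1416981_at of Foxo1, had an unadjusted p under 0.05 in limma, beside 2.94% of all probe sets. In PRDM2 shRNA cells 17 genes lay on the higher side against 7 on the lower (median 0.05). Of all genes 48.8% lay on the higher side, with a median of -0.0033. Without GFP shRNA replicate 2 the sides were 12 and 12, and the median was 0.00015, beside 46.7% of all genes on the higher side and a median of -0.012. In that fit 2 genes passed the threshold, Mef2c (3 of 5 probe sets) and Foxo1 (2 of 4). A gene counted if any of its probe sets passed, whereas the share over the whole array, 0.551%, is one of probe sets. With both arrays numbered 2 left out, 0 regulator genes passed. Mef2c, a muscle transcription factor that works with MyoD, read 8.56, 8.37 and 7.85 in PRDM2 shRNA cells against 6.45, 8.48 and 6.72 in GFP shRNA cells. Its log2 fold change was 1.05 (SE 0.52) with all arrays and 1.68 (SE 0.22, limma's adjusted p = 0.0452) without GFP shRNA replicate 2. It was 0.66 without GFP shRNA replicate 1, and 1.64 (limma's adjusted p = 0.138) without both arrays numbered 2. Foxo1, a factor that activates Cdkn1b and Cdkn1a, read 7.49, 7.57 and 7.36 in PRDM2 shRNA cells against 6.39, 7.72 and 6.47 in GFP shRNA cells (1416983_s_at), with a log2 fold change of 0.61 (SE 0.34), and 1.05 (SE 0.097, limma's adjusted p = 0.0200) without GFP shRNA replicate 2. It was 0.38 without GFP shRNA replicate 1, 0.42 without GFP shRNA replicate 3, and 1.00 (limma's adjusted p = 0.0589) without both arrays numbered 2. In these probe sets GFP shRNA replicate 2 lay with the PRDM2 shRNA arrays. In 1416981_at of Foxo1 it read 7.13, below the PRDM2 shRNA arrays at 7.71, 7.22 and 7.41, and the log2 fold change was 0.65 (SE 0.19, adjusted p = 1.00 in limma). Hes1, a repressor of the Cip/Kip genes in other cells, had a log2 fold change of 0.26 (SE 0.16), which was 0.42 without GFP shRNA replicate 2 and 0.15 without GFP shRNA replicate 3. Skp2, which targets p27 for degradation, gave 0.15 (SE 0.20), and 0.06 without GFP shRNA replicate 2. Mdm2, which restrains p53, gave -0.10 (SE 0.28), and -0.33 without that array. Myod1, the gene of MyoD, gave 0.03 (SE 0.12), and -0.08 without it. Myog, which encodes myogenin, gave 0.10 (SE 0.14), 0.23 without GFP shRNA replicate 2 and 0.01 without GFP shRNA replicate 1.

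**Figure D5:**
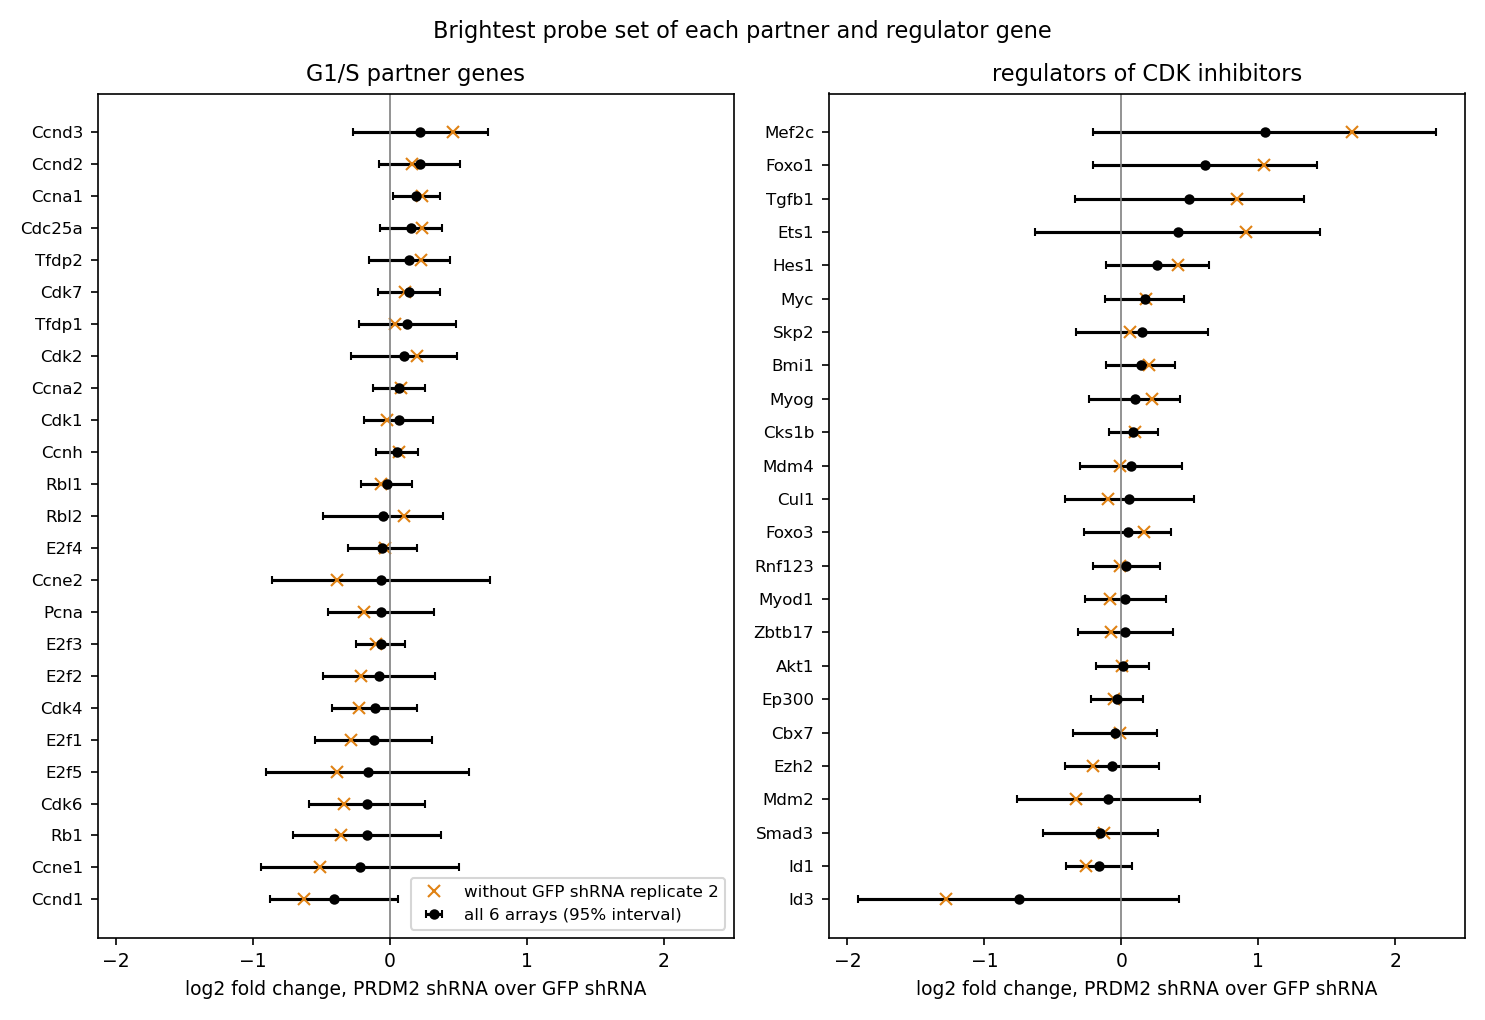
Log2 fold change of PRDM2 shRNA over GFP shRNA for the genes of the G1/S partner list and of the regulator list, with dots and 95% intervals for all 6 arrays and crosses for the values without GFP shRNA replicate 2, each gene by its brightest probe set. The medians over all 6 arrays are -0.05 and 0.05.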

How the data were processed

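Total RNA was measured on 1 Affymetrix mouse array per culture, 6 in all, from 8 ug of RNA per the labels' protocols. The deposited values are linear probe set intensities. GCOS and PLIER are named for the authors' work, per the submitters' processing notes; versions and the normalization between arrays are not given in the sources used here. Of 45101 probe sets, 64 controls and 4 of Gngt1 that held the Entrez number 14699 on GFP shRNA replicate 2 were left out. The table held 0 columns of other samples.

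Values were quantile normalized as log2(intensity + 16) and tested two-sided, without a block, by lmFit and eBayes of limma 3.58.1 (R 4.3.3), adjusted after Benjamini and Hochberg over 45033 probe sets and a threshold of 0.05. Probe sets name 1 gene (34941), several (932) or none here (9160). Depth does not apply; 3 arrays per group limit precision, and p-values measure the spread between these cultures.

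Arrays of the same number deviated together from their group means, with correlations of 0.324, 0.600 and 0.615. The pairing by number was thus read from the data and not the labels. It entered no fit but the replicate block and the test of replicate number. The main fit left it out, so its SEs, intervals and p-values are unpaired. With the block, the SE went from 0.285 to 0.083 for Cdkn1b 1434045_at and from 0.159 to 0.068 for Cdkn2d. For Cdkn2a it went from 0.068 to 0.070. All members are named, as are, per list, the 3 genes of smallest unadjusted p by brightest probe set, Myod1, Myog and Prdm2, and the 3 genes most like the most variable member. Mdm2, Skp2 and the probe sets of Mef2c and Foxo1 that passed only without 1 array were chosen after their values were seen. Members and lists were chosen with earlier results of these data known. The test of replicate number was added after the values were seen.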

Additional observations from a re-analysis of the deposited data

How the results depend on the processing

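Across 16 alternatives (values as deposited, median centring, offsets of 1 and 64, dim probe sets left out, 1 probe set a gene, array weights, eBayes with a trend and robust, the replicate block, each array left out, and both arrays numbered 2 left out), 0 inhibitors passed the threshold, with a smallest limma adjusted p of 0.0947 for Cdkn1a. Leaving out 1 array gave 0 to 248 probe sets past the threshold in all, and leaving out both arrays numbered 2 gave 59 (27 higher, 32 lower). Regulator genes past it ranged over 0 to 2, and inhibitor probe sets that differed between replicate numbers over 0 to 3, beside 0% to 11% of all probe sets. The replicate block made 0 calls and changed no other call. Of 283 alternative values of single probe sets 267 kept their direction. Reversals came with 1 array left out, over -0.164 to 0.266 and -0.221 to 0.233 for the Cdkn1b probe sets, -0.102 to 0.606 for Cdkn1c, -0.185 to 0.0912 for Cdkn2c, -0.0153 to 0.245 for Cdkn2d, -0.0129 to 0.314 for Prdm2 and -0.08 to 0.12 for Myod1. Array weights gave 0.0465 for Cdkn1b 1434045_at. Myod1 gave -0.00247 as deposited, -0.00421 with median centring and -0.0147 without the arrays numbered 2. The cause was not tested. Cdkn1a stayed on the higher side in all alternatives run, 0.211 to 0.498 and 0.101 to 0.292. Signal near background limits Cdkn2a, Cdkn2b and the dimmer Cdkn1b probe set 1419497_at. That Cdkn1b probe set exceeded 16 units on only 2 arrays, yet it passed the threshold in the test of replicate number.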
